A study of Mus musculus with 4 samples.

Results

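Chemokines are small secreted or membrane-anchored proteins that direct cell movement through G protein-coupled receptors. The ligands and receptors are sorted into CC, CXC, CX3C and XC families by the spacing of conserved cysteines in the ligand, and atypical receptors bind chemokines and remove them without signalling through G proteins. In bone marrow, Cxcl12 made by stromal and endothelial cells holds blood stem cells in place through Cxcr4, and inflammatory chemokines such as Ccl3 are known to restrain stem and progenitor cell division. The genes described here are all probe sets whose gene symbol in the platform table belongs to a chemokine ligand, a chemokine receptor or an atypical chemokine receptor, without pseudogenes and without any filter on expression. The rule found 56 genes among 23185 probe sets with a symbol, of 25206 in all. They comprise 34 ligands (19 CC, 13 CXC and 2 of the CX3C or XC families) and 22 receptors (10 CC, 6 CXC, 2 of the CX3C or XC families and 4 atypical).

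The cells were mouse long-term haematopoietic stem cells, the cells that maintain blood formation for life. Marrow cells sorted as Lin-, ckit+ and Sca+ received γ-irradiation at 0, 0.02, 0.1 or 0.5 Gy and were then transplanted. All recipients, those of unirradiated cells included, had themselves been lethally irradiated. The stem cells were sorted 6 months after transplantation by the same markers with Flk2-, CD48- and CD150+ added, a gate in which the labels give no donor marker. The strain, age and sex of the mice and any pooling of recipients were not stated in the labels. Each dose had 1 array, so a difference between doses is a difference between 2 arrays, with no replicate error and no test of it. The limma fits given below pool arrays of different doses. The deposited values are taken as log2 intensities, with the base inferred from their range of 1.22 to 13.0. The array medians lay between 4.01 and 4.07. Kit, the sorted ckit receptor, lay between 10.12 and 10.57, Slamf1, which encodes CD150, between 7.16 and 8.65, and the excluded Cd48 between 3.08 and 4.13. Flt3, which encodes the excluded Flk2, lay above the reference level of 4.06, the median of the mean values of all named genes, on all 4 arrays, at 4.46, 4.76, 5.44 and 4.76 in order of dose.

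Most of the chemokine genes had low and nearly constant values. Of the 56 genes, 16 had a mean at or above the reference level of 4.06. On all 4 arrays 14 genes lay at or above it and 37 lay below it. The other 5, namely Cxcl1, Cxcl2, Ccl3, Ackr1 and Ackr3, crossed it. No gene of the 37 differed from 0 Gy by more than 0.77 at any dose. The median difference from 0 Gy over the 56 genes was 0.00 at each dose, as it was over all named genes.

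**Figure D1:**
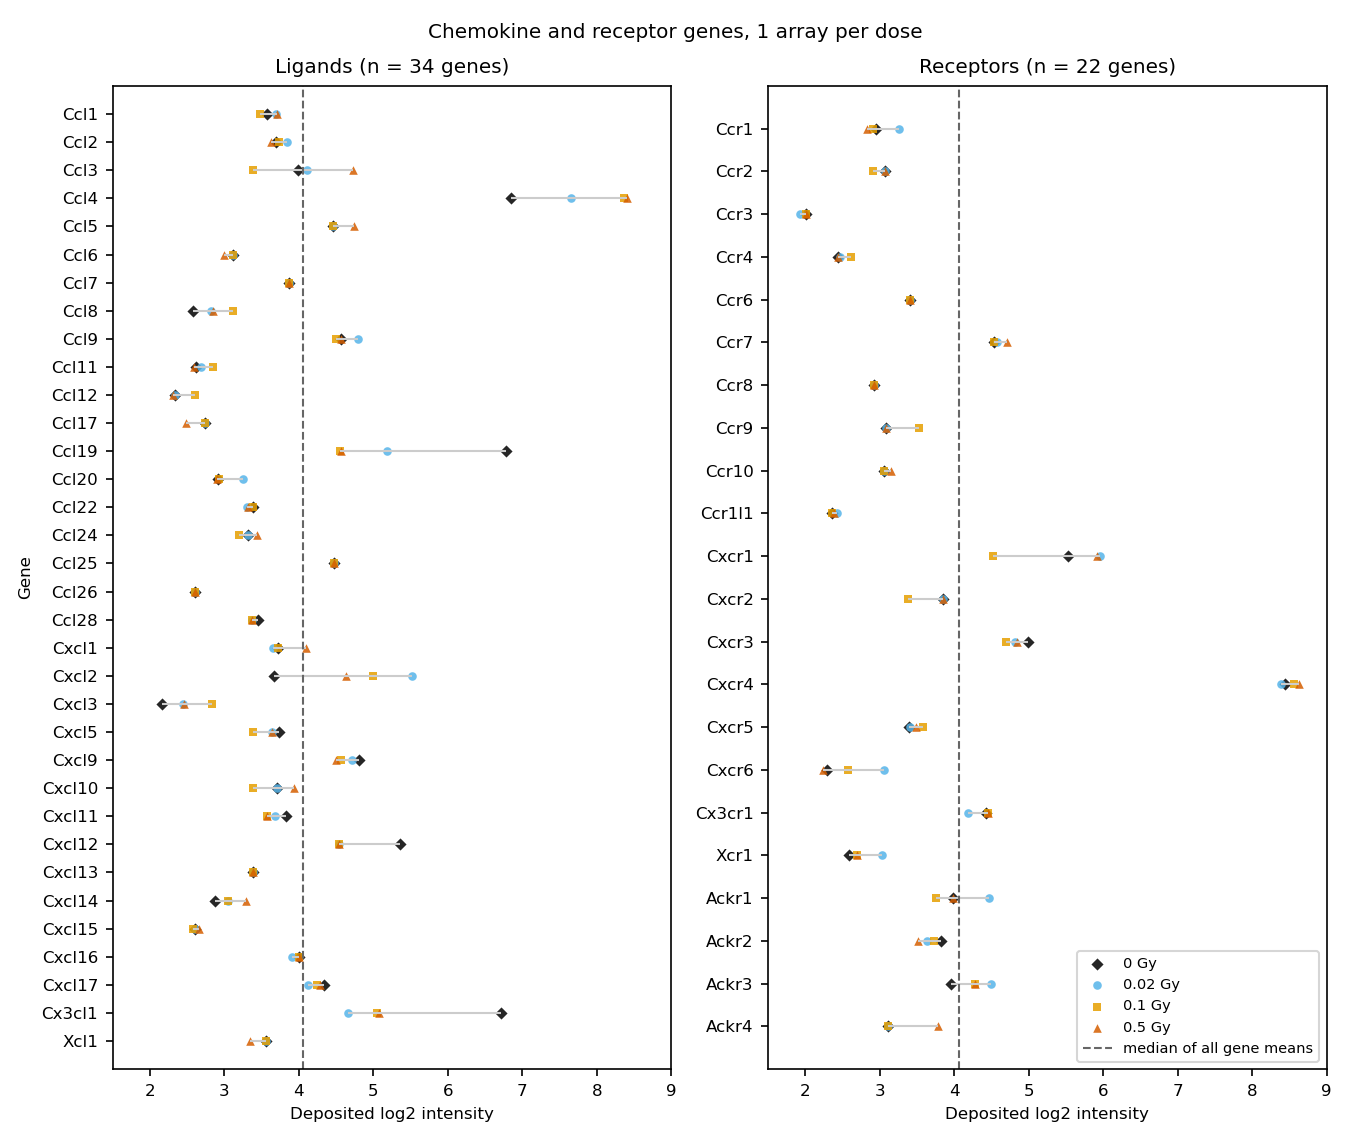
Deposited log2 intensity of each of the 34 ligand genes (left) and 22 receptor genes (right) on the 4 arrays, 1 point per array, with a grey line from the lowest to the highest value. The 0 Gy points of Cx3cl1, Ccl19 and Cxcl12 lie to the right of their 3 irradiated points, those of Ccl4 and Cxcl2 lie to the left, and for most of the other genes the 4 points nearly coincide.

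Equal values were frequent. At least 1 tie among the 4 arrays was found in 34 of the 56 genes (57.4% of all named genes had one). Exactly the same value was deposited on all 4 arrays for 6 of the 56, namely Ccl7, Ccl25, Ccl26, Cxcl13, Ccr6 and Ccr8, against 6.78% of all named genes. A number could also be shared by different genes: 3.38 was deposited to every decimal for Ccl22, Cxcl13 and, at 0.1 Gy, Ccl3. Over all named genes, 55.5% had at least 1 value that was also deposited for another gene. A difference of 0.00 in these genes is such a tie.

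Against 0 Gy, 1 gene of the 56 was at least 2-fold higher and 2 were at least 2-fold lower at 0.02 Gy, where 1.81% of all named genes were higher and 1.10% lower. The 0.1 Gy array had 2 on the higher and 3 on the lower side, beside 1.13% and 1.69% of all named genes. The 0.5 Gy array had 1 and 2, beside 1.23% and 1.87%. Only 5 different genes made up these counts: the ligands Cxcl2 and Ccl4 on the higher side and the ligands Cx3cl1 and Ccl19 and the receptor Cxcr1 on the lower side. In a set of 56, a single gene makes up 1.79%, so these shares rest on 1 to 3 genes each.

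**Figure D2:**
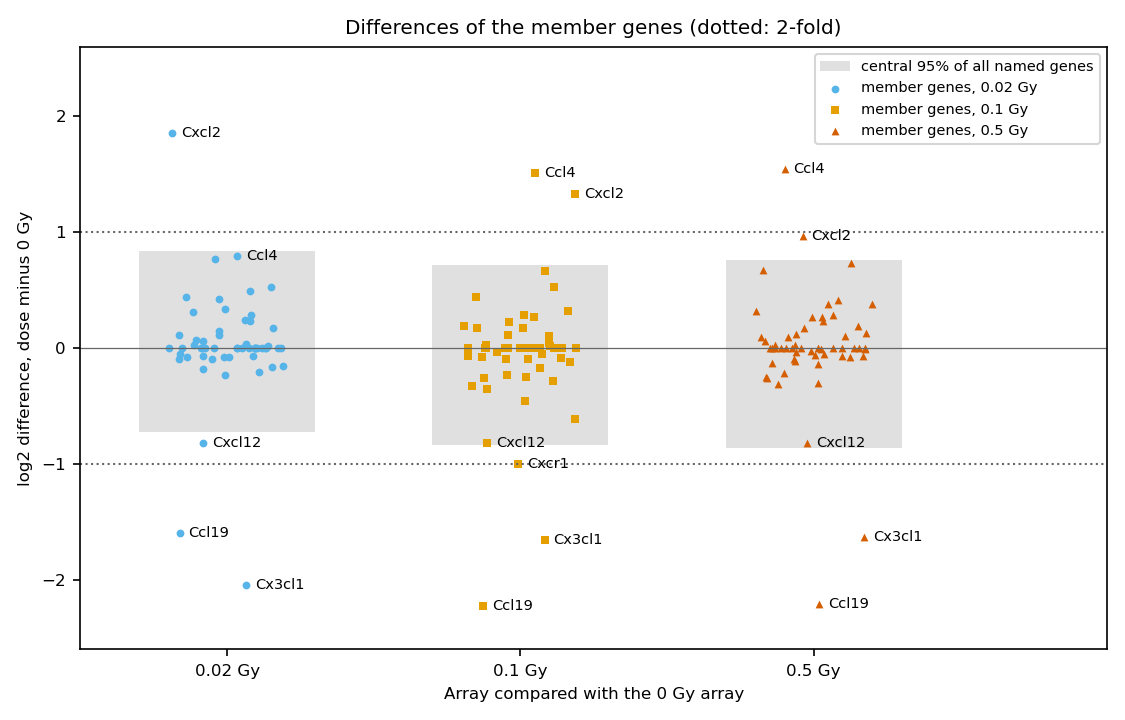
Difference in log2 intensity from the 0 Gy array for each of the 56 genes at each dose. Grey boxes hold the central 95% of all 23185 named genes, dotted lines mark 2-fold, points are spread sideways for legibility, and genes at least 0.79 from 0 are named. Ccl19 and Cx3cl1 lie below the lower dotted line at all 3 doses, between -1.59 and -2.23.

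Cx3cl1, the gene of fractalkine, a mucin-stalked chemokine that can stay on the cell surface or be shed, was highest in stem cells of the unirradiated group. Its log2 intensity was 6.71 without irradiation, against 4.66, 5.05 and 5.08 after 0.02, 0.1 and 0.5 Gy. The 0 Gy array alone was high, and the irradiated arrays lay within 0.42 of each other. The differences of -2.05, -1.66 and -1.63 correspond to 4.14-fold, 3.16-fold and 3.10-fold lower intensity at 0.02, 0.1 and 0.5 Gy. At 0.02 Gy this was the 27th lowest difference of the 23185 named genes. Cx3cl1 (Entrez gene 20312) lies on chromosome 8 from 94772180 to 94782427 in assembly GRCm38.p6, between the chemokine genes Ccl22 and Ccl17. Neither neighbour shared its difference. Ccl22, a ligand of Ccr4, had 3.38, 3.30, 3.38 and 3.31 in order of dose, and Ccl17, which binds the same receptor, 2.74, 2.74, 2.74 and 2.48, all below the reference level. The fractalkine receptor gene Cx3cr1, a marker of monocytes, had 4.42 at 0 Gy, 4.19 at 0.02 Gy and 4.45 at both higher doses.

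Ccl19 encodes a lymphoid chemokine that guides T cells and dendritic cells through Ccr7. It had 6.78 without irradiation, against 5.18, 4.55 and 4.57 after 0.02, 0.1 and 0.5 Gy. Again the 0 Gy array was highest, and 0.02 Gy lay between it and the higher doses. The intensity was 3.02-fold, 4.68-fold and 4.63-fold lower at 0.02, 0.1 and 0.5 Gy. Ccl19 (24047) lies on chromosome 4 from 42754525 to 42756365. RefSeq lists 3 pseudogene copies, Ccl19-ps1, Ccl19-ps2 and Ccl19-ps3, on the same chromosome, and none has a probe set of its own among the deposited rows. Probes could therefore read copies too, and the value is uncertain as a measure of Ccl19 alone. The receptor gene Ccr7 differed little, with 4.53, 4.57, 4.53 and 4.71, and Ackr4, the atypical receptor that removes Ccl19, had 3.11 on the first 3 arrays and 3.78 at 0.5 Gy.

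At all 3 doses 2 of the 56 genes, Cx3cl1 and Ccl19, were at least 2-fold below 0 Gy, where 0.388% of all named genes were, and 0 were at least 2-fold above it, where 0.216% were. Because all 3 comparisons use the same 0 Gy array, this is the same as saying that 0 Gy stood 2-fold above each other array. None of the 56 genes had 0.02, 0.1 or 0.5 Gy 2-fold above each other array, as 0.996%, 0.272% and 0.336% of all named genes had. Cxcr1 had 0.1 Gy 2-fold below the rest, as 0.233% of all named genes had, and none of the 56 had 0.02 or 0.5 Gy below (0.129% and 0.345%).

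Cxcl12, the retention signal for stem cells in marrow, had a smaller difference of the same form. Its value was 5.36 without irradiation, against 4.53, 4.53 and 4.54 after 0.02, 0.1 and 0.5 Gy, so the irradiated arrays were 1.77-fold, 1.77-fold and 1.76-fold lower. The values at 0.02 and 0.1 Gy were equal to every decimal, and 0.5 Gy was 0.0046 from them. In limma, which set the 3 irradiated arrays against the unirradiated one over all named genes on 2 residual degrees of freedom, Cxcl12 was lower by 0.82 (SE 0.012) with a Benjamini-Hochberg adjusted p of 0.0456. It was the only gene of the 56 called (124 of all named genes, 0.535%, were called lower and 89, 0.384%, higher). The call was kept with an intensity trend (limma adjusted p = 0.0400) and lost in the other 6 alternatives, in which the limma adjusted p reached 0.399. Among these, leaving out the 0.02, 0.1 or 0.5 Gy array gave a limma adjusted p of 0.169, 0.184 or 0.142. The SE of Cxcl12 was close to the 0.0118 of Ccl28, whose 3 irradiated values were equal. It follows from the nearly equal deposited values of the irradiated arrays and does not measure how repeatable the 0 Gy value is. Cxcl12 (20315) lies on chromosome 6 from 117168535 to 117181368.

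In the same limma fit Cx3cl1 was lower by 1.78 (SE 0.24, adjusted p = 0.166) and Ccl19 by 2.01 (SE 0.37, adjusted p = 0.246), and neither passed the threshold. At an unadjusted p under 0.05, limma gave 4 genes of the 56 lower and 0 higher, beside 6.33% and 5.45% of all named genes. These were Cxcl12, Cx3cl1, Ccl19 and the mucosal chemokine gene Ccl28, the last at -0.07. This fit counts differences between doses as error and assumes that the lone 0 Gy array varies like the others.

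The receptors of Cxcl12 differed less than the ligand. Cxcr4, the receptor that anchors stem cells, had 8.44, 8.39, 8.56 and 8.63 at 0, 0.02, 0.1 and 0.5 Gy, with no array apart from the others by more than 0.24. Ackr3, which scavenges Cxcl12, had 3.96, 4.49, 4.28 and 4.28, with 0 Gy lowest and just below the reference level.

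The 17 measured markers of endothelial and stromal cells, Cxcl12 itself left out, had a summed linear intensity of 672 without irradiation and of 501, 501 and 496 in rising order of dose. These sums rest mostly on the abundant genes Sox18, Pecam1, Tek and Emcn, and the median differences of the list from 0 Gy were -0.10, 0.00 and -0.02. Of the 17, 5, 3, 4 and 4 were at or above the reference level, in order of dose. At each dose 1 of the 17, the endothelial transcription factor gene Sox18, was 2-fold lower and 0 were higher. Of all named genes, 1.10%, 1.69% and 1.87% were 2-fold lower at 0.02, 0.1 and 0.5 Gy, and 1.81%, 1.13% and 1.23% higher. The same shares stand beside the counts of every list below. Sox18 had 6.35, 3.91, 4.38 and 4.38 in order of dose, and Pecam1, which encodes CD31, 7.67 at 0 Gy and 7.22 on each irradiated array. Members on the other side of 0 Gy included the collagen gene Col1a1, at 0.15, 0.24 and 0.15. The defining endothelial gene Cdh5 was below the reference level throughout, at 3.14, 3.13, 3.53 and 3.13. Plvap, Lepr, Pdgfrb and Kitl from the list were also below it on all 4 arrays, Pdgfrb and Kitl with the same value on each. Whether the stem cells themselves express Sox18, Pecam1, Tek and Emcn was not tested. The part of other cells in the values of Cx3cl1, Ccl19 and Cxcl12 was not tested. In RNA from sorted cells, fewer cells of a kind and less RNA per cell cannot be told apart.

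Ccl4, an inflammatory chemokine released by activated leukocytes, was higher on every irradiated array. It had 6.85 without irradiation and 7.65, 8.36 and 8.40 after 0.02, 0.1 and 0.5 Gy. The 4 values followed the order of dose, with the higher doses only 0.04 apart. The differences of 0.79, 1.51 and 1.55 correspond to 1.73-fold, 2.85-fold and 2.92-fold higher intensity. Ccl4 (20303) lies on chromosome 11 from 83648624 to 83664683, and its RefSeq gene model overlaps that of Ccl3 by 755 bases. Ccl3, the related chemokine known to restrain stem cell division, did not follow it. It had 3.99, 4.11, 3.38 and 4.73, with 0.1 Gy lowest and 0.5 Gy highest. The other genes of that cluster on chromosome 11 were nearly level. Ccl5, a T cell and platelet chemokine, had 4.46 on the first 3 arrays and 4.73 at 0.5 Gy, Ccl9 had 4.56, 4.79, 4.49 and 4.56, and Ccl6 had 3.11 on 3 arrays and 2.99 at 0.5 Gy. The limma difference of Ccl4 was 1.28 (SE 0.44, adjusted p = 0.515).

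Ccl4 is known to be made by T cells, NK cells and monocytes. The 17 T and NK cell genes had summed linear intensities of 473, 470, 408 and 668 at 0, 0.02, 0.1 and 0.5 Gy. Those of the 19 genes of monocytes, macrophages and dendritic cells were 2705, 2564, 1313 and 2156. The T and NK cell sums rest mostly on Lat, with 8.07, 7.97, 7.69 and 8.69. The other sums rest mostly on Cd74, H2-Ab1 and H2-Aa, at -2.07, -0.63 and -1.21 relative to 0 Gy at 0.1 Gy. Csf1r and Adgre1 from the same list had 3.11 and 3.22 on all 4 arrays, below the reference level. At 2-fold, 1, 0 and 1 of the T and NK cell genes were higher and 0 lower, with medians of 0.02, 0.03 and 0.03. The T cell receptor gene Trac was higher at 0.02 Gy, by 1.21, and Thy1 at 0.5 Gy, by 1.40, while Cd3d, another T cell receptor component, was at -0.94, -0.87 and -0.87. In the monocyte list 2 were higher at 0.02 Gy, Cd68 by 1.68 and Ly6c2 by 1.90. At 0.1 Gy 3 were lower, namely Cd68 at -2.07, Cd74 and H2-Aa, and at 0.5 Gy 1 was lower, Ly6c2 at -1.56. The medians were 0.00 at each dose. The part of these cells in the values of Ccl4 was not tested.

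Cxcl2, which draws neutrophils through Cxcr2, was also higher on every irradiated array, in a different order. It had 3.67 without irradiation and 5.52, 4.997 and 4.63 after 0.02, 0.1 and 0.5 Gy. The 0 Gy value lay below the reference level, so the size of the differences is uncertain. They came to 1.86, 1.33 and 0.97, of which the last, 1.96-fold, fell just short of 2-fold. The limma difference was 1.39 (SE 0.46, adjusted p = 0.505). Cxcl2 (20310) lies on chromosome 5 from 90903899 to 90905938, in a cluster with Cxcl5, Cxcl3, Cxcl15 and Cxcl1. Its close relatives there stayed low. Cxcl1 had 3.72, 3.65, 3.72 and 4.10, Cxcl3 2.17, 2.45, 2.83 and 2.46, and Cxcl5 3.73, 3.64, 3.38 and 3.64.

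The promoters of Cxcl2, Cxcl1 and Cxcl3 are shown to compare genes that share a motif and differ in their values. Promoters were taken from RefSeq in build GRCm38.p6, as the 250 bases before the annotated start, and 42 of the 56 genes had an entry. Bases are counted from the start, the base before it being -1. The NF-kB motif, searched on both strands as GGGA, any base and TTTCC, was present in 4 of the 44 promoters of these 42 genes and in 0.356% of all 32851 promoters. The genes were Cxcl1, Cxcl2, Cxcl3 and the eotaxin receptor gene Ccr3. In each line the motif is in capitals, with 45 bases on either side.
Cxcl2, chr5:90903757-90903856, plus strand: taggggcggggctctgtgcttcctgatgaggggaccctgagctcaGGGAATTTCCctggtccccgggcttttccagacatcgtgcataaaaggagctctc
Cxcl1, chr5:90891129-90891228, plus strand: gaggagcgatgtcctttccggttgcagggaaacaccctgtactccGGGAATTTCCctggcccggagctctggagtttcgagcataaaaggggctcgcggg
Cxcl3, chr5:90785983-90786082, plus strand: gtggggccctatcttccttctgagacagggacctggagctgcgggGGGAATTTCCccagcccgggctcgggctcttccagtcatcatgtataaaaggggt
All 3 hold the same letters, GGGAATTTCC, on the plus strand, from -97 in Cxcl2, -71 in Cxcl1 and -73 in Cxcl3. The differences from 0 Gy were 1.86, 1.33 and 0.97 for Cxcl2, 0.28, 0.66 and 0.29 for Cxcl3, and -0.07, 0.00 and 0.38 for Cxcl1. Cxcl2 and Cxcl3 thus lay above 0 Gy on every irradiated array, Cxcl3 below the reference level throughout, and Cxcl1 lay above 0 Gy at 0.5 Gy alone.

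The promoters of Ccl19 and Cx3cl1, the 2 genes at least 2-fold lower at all 3 doses, are shown next. The interferon element, searched on both strands as GAAA, any 2 bases and GAAA, was found in 3 of the 44 promoters, those of Ccl19, Cxcl10 and Cxcl14, and in 2.98% of all promoters. It is in capitals for Ccl19, from -208 to -199, and neither motif was found in the 250 bases of Cx3cl1.
Ccl19, chr4:42756366-42756615, minus strand: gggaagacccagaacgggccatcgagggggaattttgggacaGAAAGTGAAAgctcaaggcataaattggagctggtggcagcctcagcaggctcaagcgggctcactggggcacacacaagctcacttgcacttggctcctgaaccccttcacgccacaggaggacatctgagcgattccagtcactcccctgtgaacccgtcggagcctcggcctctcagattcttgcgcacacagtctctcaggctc
Cx3cl1, chr8:94771930-94772179, plus strand: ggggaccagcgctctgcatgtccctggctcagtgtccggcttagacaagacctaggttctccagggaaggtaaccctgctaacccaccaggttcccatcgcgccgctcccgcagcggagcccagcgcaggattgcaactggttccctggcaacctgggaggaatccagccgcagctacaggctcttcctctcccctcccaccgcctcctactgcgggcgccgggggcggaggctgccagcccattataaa
Cxcl10, an interferon-induced ligand of Cxcr3 with the same element, GAAAGTGAAA, had 3.70, 3.70, 3.38 and 3.93 and so did not share the differences of Ccl19. The RefSeq table held no entry for Ccl4.

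**Figure D3:**
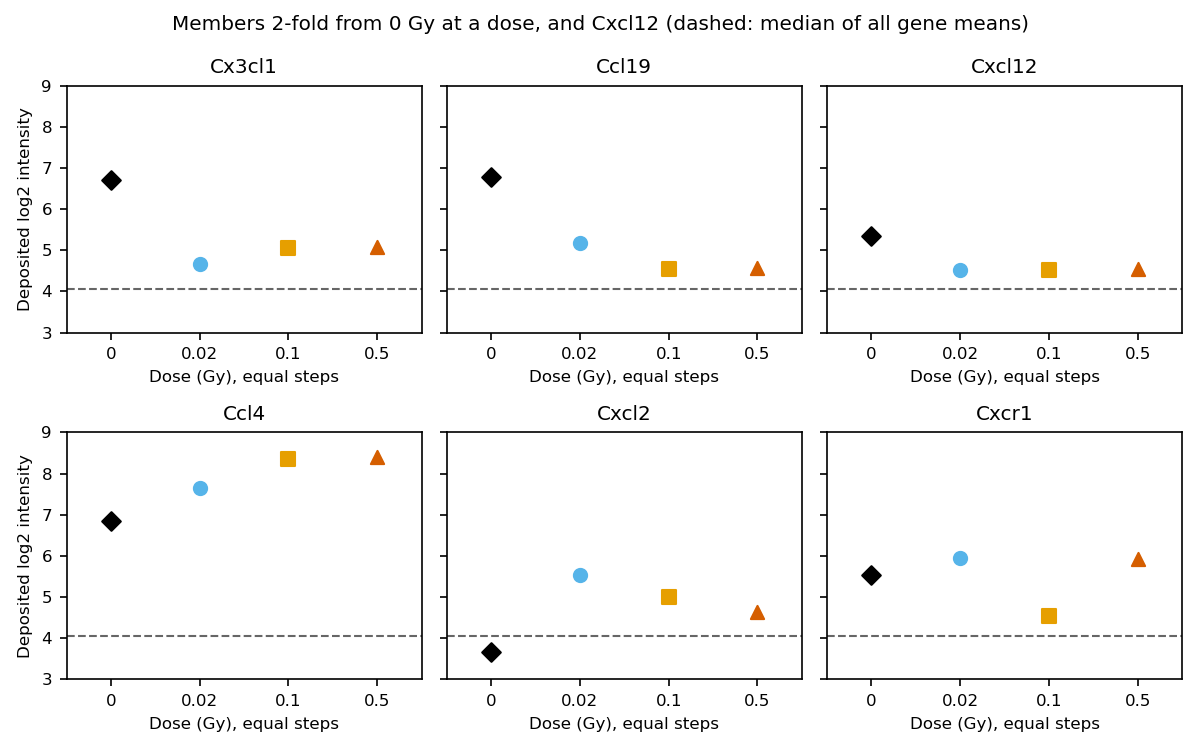
Deposited log2 intensity of 6 genes on the 4 arrays, 1 point per array, with doses drawn at equal steps and the reference level of 4.06 as a dashed line. Cx3cl1, Ccl19 and Cxcl12 are highest at 0 Gy, Ccl4 and Cxcl2 are lowest there, and Cxcr1 is lowest at 0.1 Gy.

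Among the receptors, Cxcr1 alone reached 2-fold. Cxcr1, a neutrophil receptor for CXC ligands, had 5.53 without irradiation and 5.95, 4.53 and 5.91 after 0.02, 0.1 and 0.5 Gy. The 0.1 Gy array was low and the other 3 were within 0.42 of each other. Its difference of -1.005 from 0 Gy lay at the threshold, at 2.01-fold, while the difference of 0.1 Gy from 0.02 Gy was -1.43. Cxcr1 (227288) lies on chromosome 1 from 74191785 to 74194708, next to Cxcr2, the receptor of Cxcl2 that is abundant on neutrophils. Cxcr2 had 3.84 on 3 arrays and 3.38 at 0.1 Gy, below the reference level on all 4. The sum of the neutrophil and granulocyte progenitor genes was highest on that array. The 15 measured, Cxcr2 left out, had summed linear intensities of 421, 807, 1342 and 757 at 0, 0.02, 0.1 and 0.5 Gy. At 0.1 Gy 8 of the 15 were at or above the reference level. At 2-fold 3, 6 and 3 of the 15 were higher and 1, 0 and 0 lower at 0.02, 0.1 and 0.5 Gy. Of all named genes 1.81%, 1.13% and 1.23% were higher and 1.10%, 1.69% and 1.87% lower. The medians of the list were 0.31, 0.44 and 0.46. The myeloperoxidase gene Mpo, with the largest difference of the list, had 4.78, 6.44, 8.75 and 7.07. Ly6g and Mmp8 were at -0.06 and 0.00 at 0.1 Gy. The part of neutrophils and granulocyte progenitors in the values of Cxcr1 and Cxcl2 was not tested.

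Receptors known from T cells, B cells and monocytes differed in level. Cxcr3, carried by effector T cells, had 4.98, 4.82, 4.69 and 4.85, with 0 Gy highest and all 4 above the reference level. Cxcr5, the B cell follicle receptor, had 3.39, 3.40, 3.58 and 3.48, below it. Ccr2, the monocyte receptor also used by progenitors entering tissue, had 3.07 on 3 arrays and 2.902 at 0.1 Gy, and its ligand gene Ccl2 3.69, 3.84, 3.73 and 3.62. Ccr9, a thymus-homing receptor, had 3.09 on 3 arrays and 3.53 at 0.1 Gy, while the gene of its ligand, Ccl25, had 4.47 on all 4. Cxcr6, a receptor of tissue-resident T cells, had 2.29, 3.06, 2.57 and 2.23, the widest range among receptors that stayed below the level. Over the 10 CC receptors, differences from 0 Gy lay between -0.17 and 0.44. Ackr1, the erythroid and venular scavenger, had 3.98, 4.47, 3.75 and 3.98, and Ackr2, which removes inflammatory CC ligands, 3.82, 3.64, 3.72 and 3.52.

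Several further ligands lay within 2-fold of 0 Gy on each irradiated array. Ccl8, a monocyte chemokine, had 2.58, 2.82, 3.11 and 2.85, with 0 Gy lowest. Ccl20, the ligand of Ccr6, had 3.25 at 0.02 Gy and between 2.904 and 2.92 elsewhere. Cxcl9, an interferon-induced ligand of Cxcr3, had 4.81, 4.71, 4.56 and 4.50, lower at each higher dose over a range of 0.31. Cxcl14 had 2.88, 3.05, 3.05 and 3.30, and Cxcl16, the membrane-anchored ligand of Cxcr6, 3.99 on 3 arrays and 3.91 at 0.02 Gy. Xcl1, a lymphocyte chemokine, had 3.56 on 3 arrays and 3.35 at 0.5 Gy, and its receptor gene Xcr1, a marker of cross-presenting dendritic cells, 2.59, 3.03, 2.69 and 2.69.

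Between irradiated arrays few of the genes differed. From 0.02 to 0.1 Gy, 0 of the 56 were at least 2-fold higher and 1, Cxcr1, was lower, beside 1.01% and 2.21% of all named genes. From 0.02 to 0.5 Gy, 0 were higher and 0 lower, beside 1.12% and 2.23%. From 0.1 to 0.5 Gy, 2 were higher, Cxcr1 by 1.38 and Ccl3 by 1.35, and 0 lower, beside 1.10% and 1.27%. A straight line in dose, fitted by limma over the 4 arrays, called 0 of all 23185 named genes. At an unadjusted p under 0.05, that limma fit gave 6 of the 56 genes with a slope above 0 and 3 with a slope below 0, beside 7.02% and 6.63% of all named genes.

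By position, 35 of the 56 genes fell into 9 clusters with gaps of at most 500 kb, and 21 stood alone. In the cluster of 6 on chromosome 11 from 82035577 to 82179812, which holds the chemokine genes Ccl2, Ccl7, Ccl11, Ccl12, Ccl8 and Ccl1, 0 genes reached 2-fold at any dose, and differences lay between -0.10 and 0.53. In the cluster of 7 receptor genes on chromosome 9 from 123767211 to 124109140, from Ccr9 to Ccr2, 0 reached 2-fold, with differences between -0.17 and 0.77. The interferon-induced genes Cxcl9, Cxcl10 and Cxcl11 on chromosome 5 had differences between -0.33 and 0.23. In each cluster that held a 2-fold difference, a single gene made it.

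Downstream of the receptors, 42 of 49 listed G protein, kinase, arrestin and effector genes were measured. None was 2-fold from 0 Gy in either direction at 0.02 or 0.1 Gy. The 0.5 Gy array had 2 of them on the higher and 0 on the lower side, and the medians were 0.00 at each dose. The shares of all named genes, for this list and those that follow, are those given above. The 2 were Rgs1 and Rgs2, whose proteins switch off G proteins. Rgs1 had 9.93, 10.42, 10.63 and 11.24 at 0, 0.02, 0.1 and 0.5 Gy, and Rgs2 8.56, 8.71, 9.11 and 9.61, both in order of dose. Rgs19 was at 0.46, 0.41 and 0.98 relative to 0 Gy, and Grk5, a kinase that desensitises receptors, at 0.82, 0.91 and 0.39.

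Of 27 measured genes of homing and retention, 1 was 2-fold higher at 0.02 Gy, 1 at 0.1 Gy and 0 at 0.5 Gy, and 0 were lower at any dose, with medians of 0.07, 0.00 and 0.00. S1pr1, the receptor that leads cells out of tissues along sphingosine-1-phosphate, had 7.03, 8.04, 7.29 and 7.51, and the tetraspanin gene Cd82 6.21, 6.73, 7.26 and 6.74. The adhesion gene Esam was at 0.79, -0.28 and -0.18 relative to 0 Gy, and Selplg, the selectin ligand, at 0.58, 0.37 and 0.76.

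The chemokine induction list held 30 measured genes, inhibitors of NF-kB such as Tnfaip3 and Nfkbia included. At 0.02 Gy 3 were 2-fold higher and 0 lower, at 0.1 Gy 2 higher and 1 lower, and at 0.5 Gy 0 either way. The medians were 0.03, 0.00 and 0.00. Tnfaip3, a feedback inhibitor of NF-kB, had 6.16, 7.21, 7.57 and 6.96 and so lay above 0 Gy on each irradiated array. Among other NF-kB genes of the list, Relb was at 0.36, 0.58 and 0.36, Nfkb2 at 0.53, -0.04 and 0.00, and Nfkbia at 0.14, -0.24 and 0.00. A link of these genes to the values of Cxcl2 was not tested. Bcl3 was at 1.77, 0.00 and -0.79, the cytokine gene Tnf at 0.18, 1.55 and 0.60, and the lymphotoxin gene Ltb at -0.60, -2.99 and -0.82. Nfkbiz, named after its values were seen as the third gene higher at 0.02 Gy, was at 1.34, 0.61 and 0.66.

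**Figure D4:**
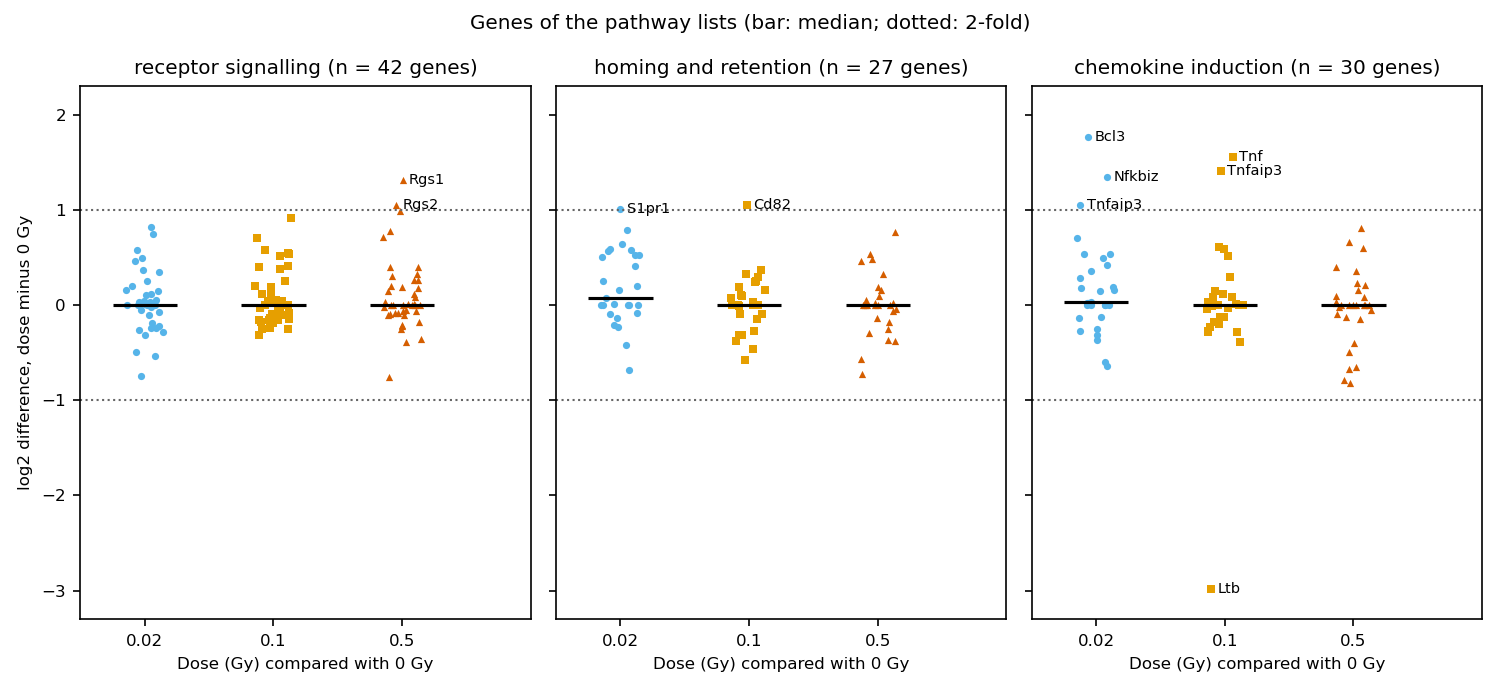
Difference in log2 intensity from 0 Gy at each dose for 42 receptor signalling genes, 27 homing and retention genes and 30 chemokine induction genes. Points are genes, spread sideways for legibility, bars are medians, dotted lines mark 2-fold and genes past it are named. The medians lie between 0.00 and 0.07.

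Of 11 related genes outside the symbol rule, 0 were 2-fold higher at any dose and 1, at 0.1 Gy, was lower. It was Cd74, the class II invariant chain and a receptor of the chemotactic cytokine Mif, with 9.94, 9.68, 7.87 and 9.23. The platelet chemokine genes differed by less: Pf4, known to keep stem cells quiescent when released by megakaryocytes, had 10.51, 9.992, 9.998 and 10.35, and Ppbp 5.84, 5.68, 5.12 and 5.84. Cklf, a chemokine-like factor, was at -0.61, 0.01 and -0.60 relative to 0 Gy.

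The remaining marker lists were summed in the same way. The 12 B cell genes had summed linear intensities of 2240, 2963, 2838 and 357 at 0, 0.02, 0.1 and 0.5 Gy. The sums at 0, 0.02 and 0.1 Gy rest mostly on Ighm, with 10.93, 11.20, 11.35 and 7.21 in order of dose. The median differences of the list from 0 Gy were 0.16, 0.01 and -0.03. The 12 genes of basophils and mast cells summed to 1374, 1261, 1268 and 1316, totals that rest mostly on Gata2. It had 10.33 at 0 Gy and 10.18 on each irradiated array. Apart from Gata2, Cpa3 and Il4, every gene of that list lay below the reference level of 4.06 on all 4 arrays. Whether the stem cells themselves express Gata2 was not tested. For the 12 genes of megakaryocytes and platelets the sums were 5292, 5097, 4313 and 5038. At 2-fold, 3 B cell genes were higher at 0.02 Gy, and 1 was higher and 1 lower at 0.5 Gy. Of the basophil and mast cell genes Cpa3 was higher at 0.1 Gy, by 1.20, and Il4 at 0.5 Gy, by 1.88, and 0 were lower. In the megakaryocyte and platelet list 3 were lower at 0.1 Gy and 3 at 0.5 Gy, among them Vwf at -1.44 and -1.30. The part of the stem cells themselves in the values of that list was not tested.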

How the data were processed

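The deposited series matrix gives log2 values, 1 per Entrez gene probe set and array, from an Affymetrix whole-transcript labelling, per the labels' protocols. The base 2 was inferred from the range of the deposited values. Partek is named in the submitters' processing notes without role or version. How background was corrected and arrays normalized is not given in the sources used here. Values were used as deposited. Arrays carry no read depth, and 1 array per dose limits the precision.

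Genes were named from the platform table, and all 56 symbols matched RefSeq (GRCm38.p6) by Entrez number. Differences from 0 Gy were called at 2-fold. R 4.3.3 with limma 3.58.1 (moderated fits, Benjamini-Hochberg adjusted over 23185 genes, threshold 0.05) fitted irradiated against 0 Gy and a straight line in dose, and was tested on simulated data. Named by a preset rule were all genes at 2-fold at a dose, genes called by limma and stem cell niche genes (Ccl21a was not analysed here). The rule also covered up to 4 genes per list, by largest difference. Further genes of the 56 and of the lists were named outside this rule and are not a preset selection. The 56 genes and the 12 lists were chosen with earlier results of these data known. Tried as alternatives were median centring, quantile normalization, cyclic loess, a filter on mean values that kept 11593 genes, a 1.5-fold threshold, an intensity trend, dose rank and leaving out arrays. Summaries used Python 3.11.15 with pandas 2.3.3.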

Additional observations from a re-analysis of the deposited data

How the results depend on the processing

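No paired analysis was possible because each dose has 1 array and the labels give no replicate numbers. Quantile normalization, median centring and cyclic loess left 51 of 54 differences of Cx3cl1, Ccl19, Cxcl12, Ccl4, Cxcl2 and Cxcr1 on the same side of 2-fold. Cxcr1 at 0.1 Gy came to -0.96 under quantile normalization and -0.99 under cyclic loess, and Cxcl2 at 0.5 Gy to 1.03 under quantile normalization, which made the genes 2-fold higher at 0.5 Gy 2 in place of 1. At 1.5-fold, 3 genes were higher and 3 lower at 0.02 Gy, beside 4.59% and 4.27% of all named genes. The 0.1 Gy array had 3 higher and 5 lower, beside 3.99% and 4.94%. The 0.5 Gy array had 4 higher and 3 lower, beside 4.36% and 5.39%. limma, comparing irradiated with 0 Gy arrays, called 0 of the 56 genes after quantile normalization, after cyclic loess, with the filter on low values and without any irradiated array in turn (0 to 0). Over all genes it then called 0, against 213 in the values as deposited and 320 with an intensity trend. The limma difference of Cxcr1, -0.07 with all arrays, lay between -0.31 and 0.40 with 1 irradiated array left out, and turned positive without 0.1 Gy. The straight line in dose called 0 of the 56 genes in all alternatives run. The cause of these changes was not tested. Without replicates, no value here has an error from repeated samples.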
